A study of Homo sapiens with 16 samples.

Results

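Splicing factors, hnRNPs and RNA helicases are proteins that act on RNA, and the values described here are those of Argonaute 2 (Ago2) on their own messenger RNAs. Genes were taken from the Ago2 peak table by symbol: the prefixes SRSF, HNRNP, SF3A, SF3B, PTBP, RBM, U2AF, PRPF, KHDRBS, SNRP, DDX, DHX, CELF, ELAVL and PUM, with a digit after SRSF, RBM, DDX, DHX and PUM, and with DDX3X and DDX6 left out. This rule, which used no measured value, found 47 of the 2213 genes and 153 of the 4768 peaks in the table. In 3 cases a pair of peaks of the same gene had identical values and was counted once, which left 150 peaks of 4718. The genes fell into 6 SR proteins (SRSF), 11 hnRNPs, 7 RNA helicases (DDX and DHX), 7 RBM proteins, 12 spliceosome core proteins (SF3A, SF3B, U2AF, PRPF and SNRP) and 4 other RNA-binding proteins (CELF, ELAVL and PUM). No gene with the prefix PTBP or KHDRBS had a peak.

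The study used 293S, an established line of human embryonic kidney cells, given 1 µM hippuristanol for 30 min or left untreated, with no genetic change named in the labels. Hippuristanol blocks eIF4A, the helicase that prepares messenger RNAs for the ribosome. The design text of the series gives 2 biological replicates per treatment, each divided for RNA-seq and for Ago2 crosslinking and immunoprecipitation (CLIP) with antibodies of 3 suppliers, giving 6 hippuristanol and 6 untreated CLIP libraries. For each peak the table holds the authors' own log ratio, hippuristanol over untreated, and log average of both, with libraries pooled. Differences between replicates therefore cannot be seen, and no comparison below was tested. The log base is not stated in the files or labels, so values are in the authors' log units and give no folds. The depth of the libraries is unknown. None of 13 marker genes of other cell types had a peak, and Ago2 peaks do not measure transcript levels, so they are no check of the cell line.

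SR proteins carry stretches rich in serine and arginine and bind enhancers in exons, where they help the spliceosome to define a splice site. The hnRNPs coat nascent RNA and often oppose SR proteins, while DEAD-box and DEAH-box helicases use ATP to unwind RNA or to strip proteins from it. The genes of many such factors keep their own output level through alternative splicing of their transcripts, and microRNAs, carried by Ago2, can act on the messenger RNAs that result. An Ago2 peak marks a stretch of RNA that was crosslinked to Ago2.

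MicroRNAs guide Ago2 by their seed, bases 2 to 8. The mature sequences below, from RefSeq on GRCh38.p14, stand for 7 families chosen as widely expressed and are shown so that the sites that follow can be read against them, with the seed in capitals.
hsa-let-7a-5p: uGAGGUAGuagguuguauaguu
hsa-miR-17-5p: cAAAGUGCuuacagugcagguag
hsa-miR-19b-3p: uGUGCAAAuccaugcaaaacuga
hsa-miR-92a-3p: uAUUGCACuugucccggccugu
hsa-miR-16-5p: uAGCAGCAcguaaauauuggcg
hsa-miR-30a-5p: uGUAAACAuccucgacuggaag
hsa-miR-10a-5p: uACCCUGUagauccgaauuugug

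Matches to these seeds were counted in the annotated 3′ untranslated regions (3′ UTRs) of the 37 member genes with a 3′ UTR peak and of the other genes with one. The members held 67 matches of 7 nt, 0.718 per kb, and 28 of the 37 (75.7%) had at least 1. The other 1490 genes held 0.964 per kb, and 82.5% of them had at least 1. The members' 3′ UTRs had a median length of 2247 nt, against 2119 nt in the other genes, and a median GC content of 35.8%, against 39.6%. By family, 13 of the 37 members (35.1%) had a miR-19 match, against 30.7% of the other genes, but per kb miR-19 matches numbered 0.139, against 0.148. A let-7 match was present in 2 members (5.41%), against 15.2% of the other genes, and a miR-92 match in 2 members (5.41%), against 23.0%. These are counts of letters in GENCODE 29 transcripts on GRCh38, searched on the transcript strand, and no match was placed under a peak, because the peaks are given on hg19. The following matches, in capitals with 10 bases on each side, are shown for the SR, hnRNP and helicase genes described below.
SRSF6, miR-19, from base 15 of a 3′ UTR of 3184 nt on chromosome 20: gaactccttgTTTGCACattattatgg
SRSF7, miR-30, from base 36 of 1534 nt on chromosome 2: aaagttatttTGTTTACattattataa
SRSF2, miR-17, from base 957 of 2046 nt on chromosome 17: gaaaccatgtGCACTTTaatggaaggt
HNRNPU, miR-19, from base 1525 of 4153 nt on chromosome 1: ttatattgggTTTGCACagaacacttt
HNRNPA2B1, miR-30, from base 2361 of 2537 nt on chromosome 7: cttggtgtaaTGTTTACacataaaatg
DDX17, miR-19, from base 1139 of 2495 nt on chromosome 22: tcggcatcctTTTGCACtcagcttatt

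The mean number of Ago2 peaks per gene differed between the groups. The hnRNPs had 5 per gene, the SR proteins 4, the other RNA-binding proteins 3.75 and the helicases 3.43, while the RBM proteins had 1.86 and the spliceosome core proteins 1.58, against 2.11 in the 2166 genes outside the rule. Over all members there were 3.19 per gene. A single peak was found in 21 of the 47, and 12 of the 47 members had 5 or more peaks (25.5%), against 6.83% of the other genes. HNRNPA2B1 had 20 peaks, SRSF1 had 10, and DDX17 and HNRNPU had 9 each. A few genes thus carry the group means: HNRNPA2B1 alone held 20 of the 55 hnRNP peaks, while 3 of the 11 hnRNPs had 1 peak. The order of the group means need not hold for the typical gene of each group. Of the member peaks 88 lay in 3′ UTRs (58.7%, against 61.4% of other peaks), 54 in coding sequence (CDS; 36.0%, against 19.6%), 5 in 5′ UTRs and 3 in exons of a non-coding transcript (2.00%, against 15.0%). The other genes had 687 such non-coding peaks, in 132 genes that include non-coding RNAs such as MALAT1. The rule takes no such RNAs, so the low non-coding share of members follows in part from the rule. Those 687 peaks also lower the CDS and 3′ UTR shares of the other genes. The helicases had 14 of 24 peaks in CDS and the hnRNPs 24 of 55, while the SR proteins had 4 of 24. By gene, 4 of 7 helicases, 6 of 11 hnRNPs and 2 of 6 SR genes had a CDS peak. DDX5 alone held 6 of the helicase CDS peaks and HNRNPA2B1 10 of those of the hnRNPs. As a description of where the peaks lie in the table, the median log average of member peaks was −8.41, against −6.69 for other peaks, and with all peaks divided into 3 equal bins by log average, 108 of the 150 member peaks (72.0%) were in the lowest bin. Whether the authors corrected log averages for peak length or for transcript level is not given, so these values cannot be read as amounts of bound RNA. The median peak length was 43 nt in members, against 39 nt in other genes.

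**Figure D1:**
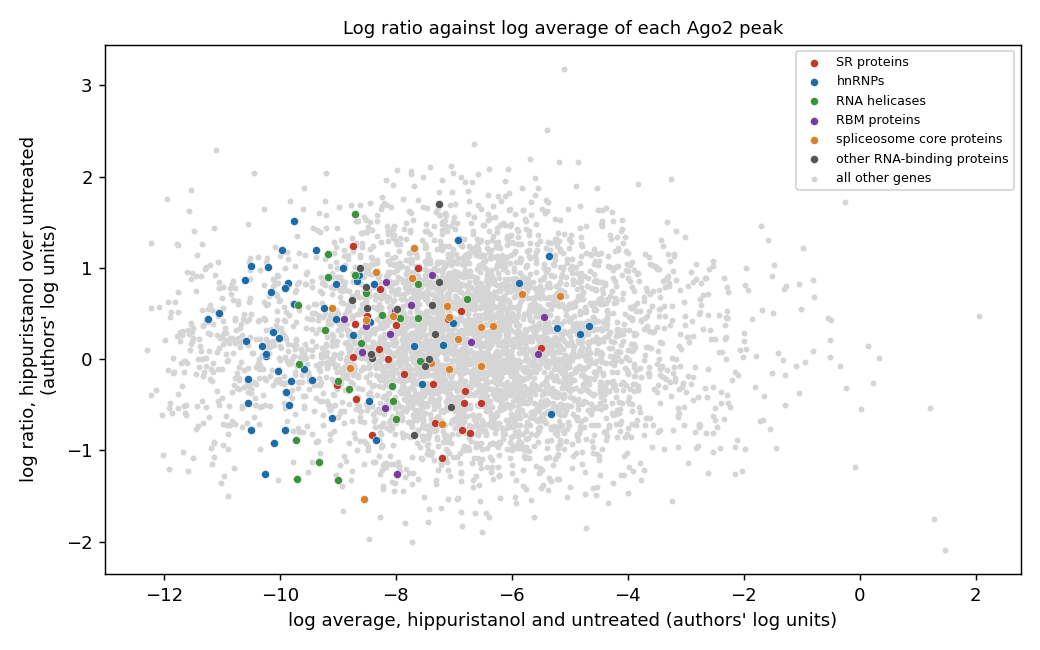
Each point is an Ago2 peak, with its log average over hippuristanol and untreated cells on the x axis and its log ratio of hippuristanol over untreated cells on the y axis, both in the authors' log units. Coloured points are the 150 member peaks by group and grey points the peaks of all other genes; most member peaks lie left of the centre of the cloud, and their log ratios span −1.53 to 1.70.

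The value of a gene was the median of its peaks, and the median over the 47 genes was 0.30, with the middle 50% between −0.023 and 0.54. The median over all 2213 genes was 0.17, called the all-gene median below. The difference of 0.13 between them came to 0.036 when the mean of a gene's peaks was used. The SD among the 47 gene values was 0.51, which describes the spread of single genes and not how closely their median is fixed. In the gene values, above 0 were 34 of the 47 members, where the share of all genes was 60.5%, and above the all-gene median were 29 of the 47, where it was 50.0%. Of the member peaks, 98 were above 0 (65.3%, where 59.1% of all peaks were). Further out, 13 had a log ratio above 1 (8.67%, where 11.3% of all peaks did) and 7 one below −1 (4.67%, where 4.22% did), while 51 of the 150 were above 0.5, where 30.6% of all peaks were, and 24 were below −0.5, where 17.0% were. Relative to the median of all peaks the balance of the outer peaks turned, with 9 member peaks more than 1 above it, where 7.48% of all peaks were, and 10 more than 1 below it, where 6.76% were. The spread of member peaks, an SD of 0.66 over peaks, was close to that of all peaks, 0.69, and in the lowest of the 3 bins of log average it was 0.68, against 0.67 for all peaks of that bin.

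The SR, hnRNP and helicase groups had overlapping ranges of gene medians. The SR proteins had the lowest median, −0.32, with 2 of 6 genes above the all-gene median and gene medians from −0.48 to 0.99. The hnRNPs had a median of 0.35, with 8 of 11 above it and a range of −0.23 to 1.31. The helicases had a median of 0.085, with 3 of 7 above it and a range of −1.12 to 0.66. Their median was above that of all genes with 1 value per peak, with DDX3X and DDX6 added, and with 3′ UTR peaks only, which 4 of the 7 genes have. No test of these differences was made, since each gene has pooled values only.

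**Figure D2:**
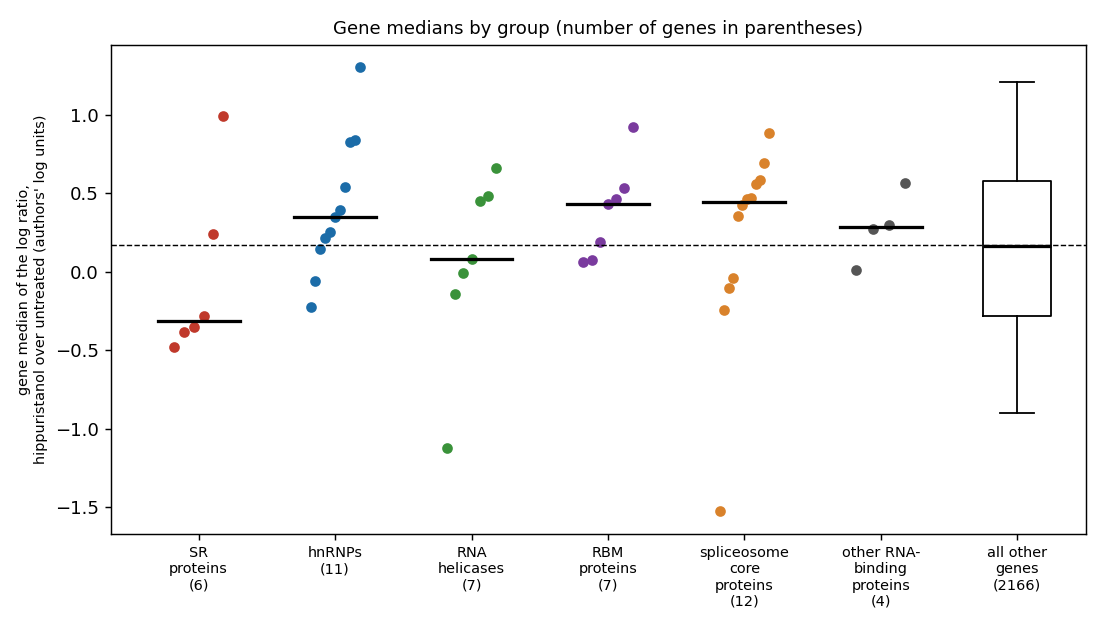
Gene medians of the log ratio of hippuristanol over untreated cells, in the authors' log units, for the 6 groups of members (points, with the group median as a black bar) and for the 2166 other genes (box: middle 50% with the median; whiskers: percentiles 5 and 95). The dashed line is the median of all genes, 0.17; 4 of 6 SR genes lie below it and 8 of 11 hnRNP genes above it.

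Among the SR proteins, 4 genes had gene medians below 0, and SRSF1 and SRSF3 lay above, where 60.5% of all genes did. SRSF2, a protein of nuclear speckles once named SC35, had 5 peaks, all in 3′ UTRs of its 2 annotated transcripts. In the authors' deposited table, listed along chromosome 17 from 74730383, they had log ratios of 0.53, 0.12, −0.80, −0.48 and −0.48. The peaks at 0.53 and 0.12 are the pair nearest the 3′ end, since the gene is on the minus strand, and the other 3 were all below 0. SRSF6, which controls exon choice in several tissues, had 5 peaks on chromosome 20. The authors' deposited table gave −0.35 and −1.09 for its 3′ UTR peaks and 0.44, −0.28 and −0.70 for the peaks in an exon of its non-coding transcript, which were the only peaks of a non-coding transcript among all 47 genes. Of its 5 peaks, 4 were thus below 0. SRSF7, an SR protein with a zinc knuckle, had −0.78 for its 3′ UTR peak and 0.0033 for its CDS peak in the authors' deposited table. SRSF11 had 1 peak, in the 3′ UTR, listed at −0.28 in the authors' deposited table. In SRSF3, the smallest SR protein, the authors' deposited table listed 1 peak, in the 5′ UTR (chromosome 6, 36562161 to 36562215, plus strand, hg19), at 0.99, the highest gene value of the group and the only SR peak in a 5′ UTR.

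SRSF1, the founding SR protein, had high values in its coding sequence and low ones far into its 3′ UTR. Its gene median was 0.24 over 10 peaks on chromosome 17. The authors' deposited table gave the CDS peaks 0.47, 1.24 and 0.77 in transcript order, the peaks at 1.24 and 0.77 overlapping. Its 7 3′ UTR peaks lay between −0.83 and 0.38 in the authors' deposited table, and 1 of them, at 0.38, belonged to another transcript variant and stood among the CDS peaks. The 2 peaks nearest the 3′ end, 474 nt apart and 2714 nt beyond the others, had −0.83 and −0.44 in the authors' deposited table, the lowest values of the gene. All 3 CDS peaks were above every 3′ UTR peak.

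Of the hnRNP genes, 9 of 11 had gene medians above 0, where 60.5% of all genes did. The highest was HNRNPAB, with 1 CDS peak at 1.31 in the authors' deposited table (chromosome 5, 177632903 to 177632935, plus strand). HNRNPD, also known as AUF1, binds AU-rich elements that destabilise messenger RNAs. Its 3′ UTR peaks, a pair, were listed at 0.86 and 0.82 in the authors' deposited table, the closest values among the members with 2 peaks. HNRNPM, a splicing repressor and activator, had 1 CDS peak at 0.83 in the authors' deposited table. HNRNPF, which binds runs of G, had overlapping 3′ UTR peaks at −0.28 and 0.16 in the authors' deposited table, on both sides of 0. HNRNPUL1 had 3 neighbouring 3′ UTR peaks, listed in the authors' deposited table at 0.15, −0.023 and 0.41. HNRNPA0, which binds AU-rich elements too, had 6 peaks in its 3′ UTR with a gene median of 0.35. The authors' deposited table placed them, along chromosome 5 from 137088144, at 0.34, 0.28, 0.36, 1.13, 0.83 and −0.60. The last pair, 0.83 and −0.60, overlapped by 5 nt and differed more than any other overlapping pair of members.

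HNRNPA2B1, an abundant hnRNP that binds RNA in nucleus and cytoplasm, had a gene median of 0.22 with peaks along the whole transcript. Its 20 peaks ran from −1.26 to 1.03 and 14 of them were above 0. In the authors' deposited table both 5′ UTR peaks were below 0, at −0.78 and −0.22. The 10 CDS peaks had a median of 0.22, between −0.48 and 1.03, and 8 of them were above 0. The 8 3′ UTR peaks had a median of 0.35, and 6 were above 0. The lowest value of the gene, −1.26 in the authors' deposited table, lay in an overlapping pair in the 3′ UTR (chromosome 7, 26231457 to 26231529, minus strand) whose other peak had −0.78, with the next peaks on either side at 0.60 and 0.034.

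HNRNPH1 had its higher values in the 3′ UTR, where SRSF1 had its lower ones. This protein, a close relative of HNRNPF, had a gene median of 0.25 over 8 peaks on chromosome 5. Its 3′ UTR peaks had 0.92, 1.00 and 0.56 in transcript order in the authors' deposited table. The authors' deposited table gave its CDS peaks 0.063, −0.88, −0.45, −0.64 and 0.44, all below every 3′ UTR peak. HNRNPH3, of the same family, had 1.19 for its 3′ UTR peak and −0.11 for its CDS peak in the authors' deposited table. HNRNPU, a scaffold protein of chromatin also known as SAF-A, had the lowest gene median of the group, −0.23, and a wide spread. Of its 9 peaks 3 were above 1, at 1.20 and 1.01 in CDS and 1.52 in the 3′ UTR (chromosome 1, 245016695 to 245016723, minus strand) in the authors' deposited table. The other 6 peaks lay between −0.91 and 0.30, so the median and the mean of its peaks, 0.20, had opposite signs.

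**Figure D3:**
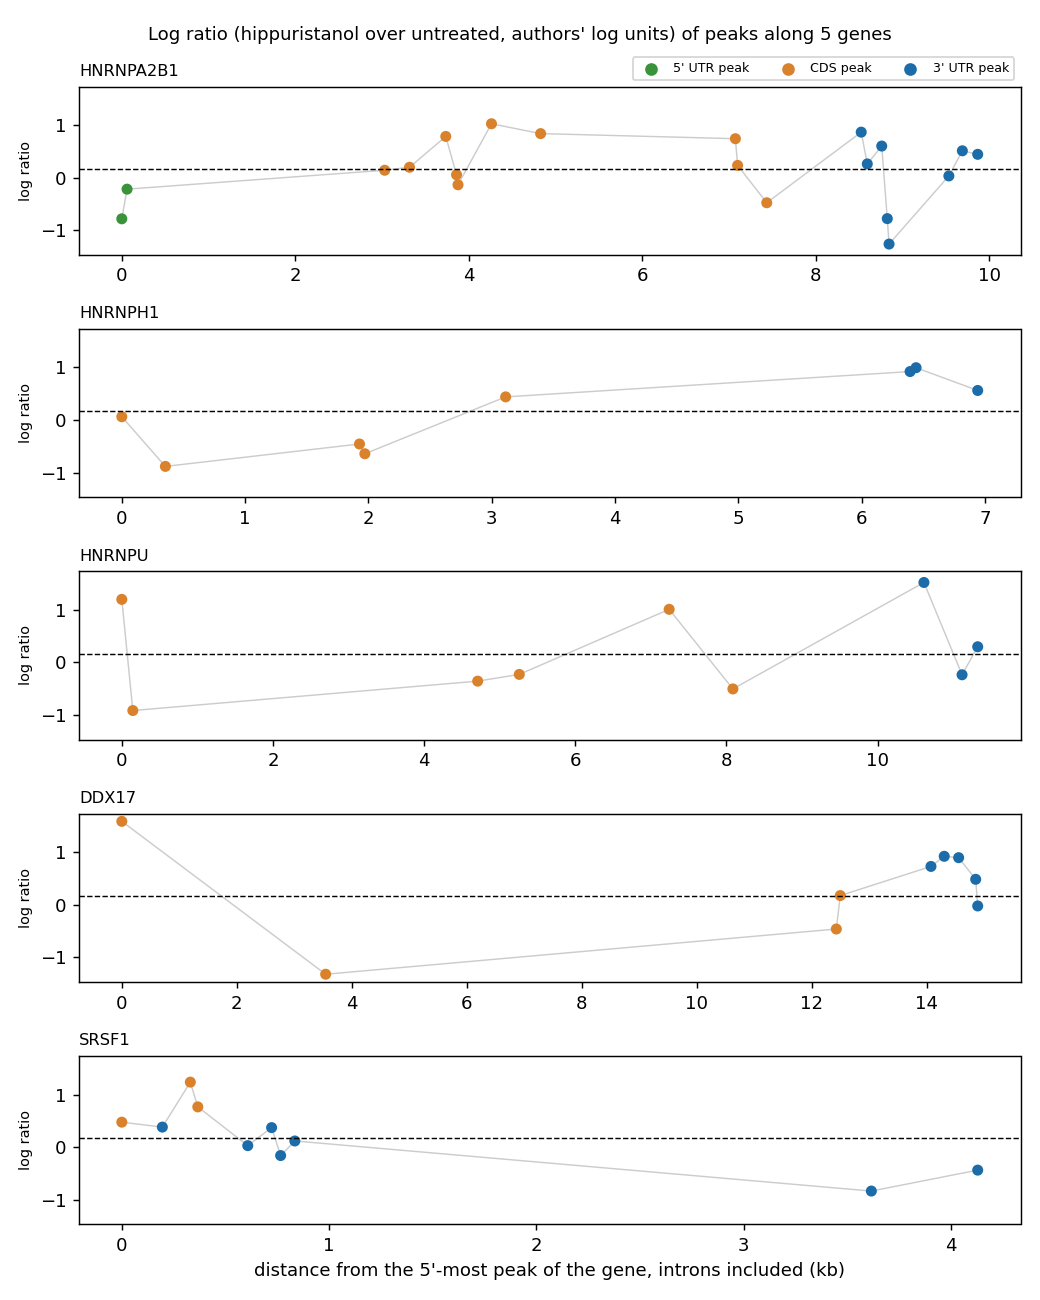
Log ratio of hippuristanol over untreated cells, in the authors' log units, of each Ago2 peak along HNRNPA2B1, HNRNPH1, HNRNPU, DDX17 and SRSF1, plotted against the distance in kb from the 5′-most peak with introns included; colours give the annotation class and the dashed line is the median of all genes, 0.17. In HNRNPH1 the 3′ UTR peaks lie above all CDS peaks, and in SRSF1 all CDS peaks lie above the 3′ UTR peaks.

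The helicases had the widest spread of peaks among the 6 groups, with an SD of 0.79 over 24 peaks. DDX5 and DDX17 are close paralogs that act as splicing regulators and as cofactors of the microRNA processor Drosha. DDX17 had a gene median of 0.48 over 9 peaks on chromosome 22. Its CDS peaks had 1.59, −1.32, −0.46 and 0.17 in transcript order in the authors' deposited table, and so held both the highest and the lowest value of the gene. Its 5 3′ UTR peaks followed with 0.73, 0.92, 0.90, 0.48 and −0.022 in the authors' deposited table, all but the last above the all-gene median. DDX5 had 6 peaks, all in CDS, and a gene median of −0.0073. From low to high the authors' deposited table gave them −1.31, −0.88, −0.33, 0.32, 0.59 and 1.15, with 3 on each side of 0. Reads shared between these paralogs were not tested.

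The remaining helicases had 1 to 3 peaks. DDX46, the human counterpart of the yeast splicing helicase Prp5, had 1 CDS peak at −1.12 (chromosome 5, 134121227 to 134121260, plus strand) in the authors' deposited table. DDX39B, or UAP56, which takes part in spliceosome assembly and messenger RNA export, had CDS peaks at 0.45, −0.30 and 0.45 in the authors' deposited table. DHX33 had 0.66 from 1 3′ UTR peak and DDX21 had −0.24 and −0.050 from 2 in the authors' deposited table. DDX18 had 3′ UTR peaks at 0.83 and −0.66 in the authors' deposited table. Thus 1 helicase gene had a value below −1 and none one above 1, where 3.43% and 9.17% of all genes did.

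The RBM genes all had gene medians above 0, where 60.5% of all genes did. Above the all-gene median lay 5 of the 7, where 50.0% of all genes did. Only 1 peak was found in 5 of the 7, and the mean of the RBM25 peaks was −0.034. RBM6 had 0.92 and RBM33 0.060, each from 1 3′ UTR peak in the authors' deposited table. RBM25, a splicing regulator that associates with U1 snRNP, had −0.54, 0.074 and 0.36 for its 3′ UTR peaks in the authors' deposited table. RBM12 had 5 peaks on chromosome 20 and a gene median of 0.53. Its CDS peaks lay between 0.28 and 0.84 and its 3′ UTR peak (34237731 to 34237772, minus strand) at −1.26 in the authors' deposited table, so that 1 peak stood apart from the other 4. RBM12 shares its locus and strand with CPNE1, and which gene a read came from was not tested.

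Of the 12 spliceosome core genes, 8 had gene medians above the all-gene median, where 50.0% of all genes did. The SF3B complex of the U2 snRNP binds the branch point. In the authors' deposited table its members SF3B1 and SF3B4 had 0.56 and 0.70 from 1 peak each, and SF3B2 had −1.53 from 1 CDS peak (chromosome 11, 65830561 to 65830584, plus strand), the lowest value of all 150 member peaks. SF3B3 had 3 peaks, at 0.43, 1.22 and 0.47 in the authors' deposited table, all above 0. SF3A2, of the partner complex SF3A, had −0.071, 0.36 and 0.71 for CDS peaks and 0.35 for the 3′ UTR peak in the authors' deposited table. U2AF2, which recognises the polypyrimidine tract, had −0.71 in CDS and 0.22 in the 3′ UTR in the authors' deposited table. Of the snRNP proteins, SNRPA of U1 had 0.89 and the Sm proteins SNRPD1, SNRPD2 and SNRPF had 0.58, −0.10 and −0.040, from 1 peak each, in the authors' deposited table.

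The other RNA-binding proteins act mainly on mature messenger RNAs. PUM2 is a Pumilio protein, a family that represses messenger RNAs through sites in 3′ UTRs. It had 5 3′ UTR peaks, at 0.55, 0.56, 0.79, 0.65 and 0.054 in transcript order in the authors' deposited table, all above 0. CELF1, which binds GU-rich elements and promotes decay, had 6 3′ UTR peaks, the lowest at −0.53 in the authors' deposited table. Its highest, at 1.70 in the authors' deposited table (chromosome 11, 47491107 to 47491153, minus strand), was the highest of all 150 member peaks. Its gene median was 0.30. The 9 members outside the naming rule (DDX18, ELAVL1, HNRNPA3, HNRNPH3, PRPF38B, PRPF4, RBM14, RBM20 and RBM39) had gene medians between 0.085 and 0.54.

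**Figure D4:**
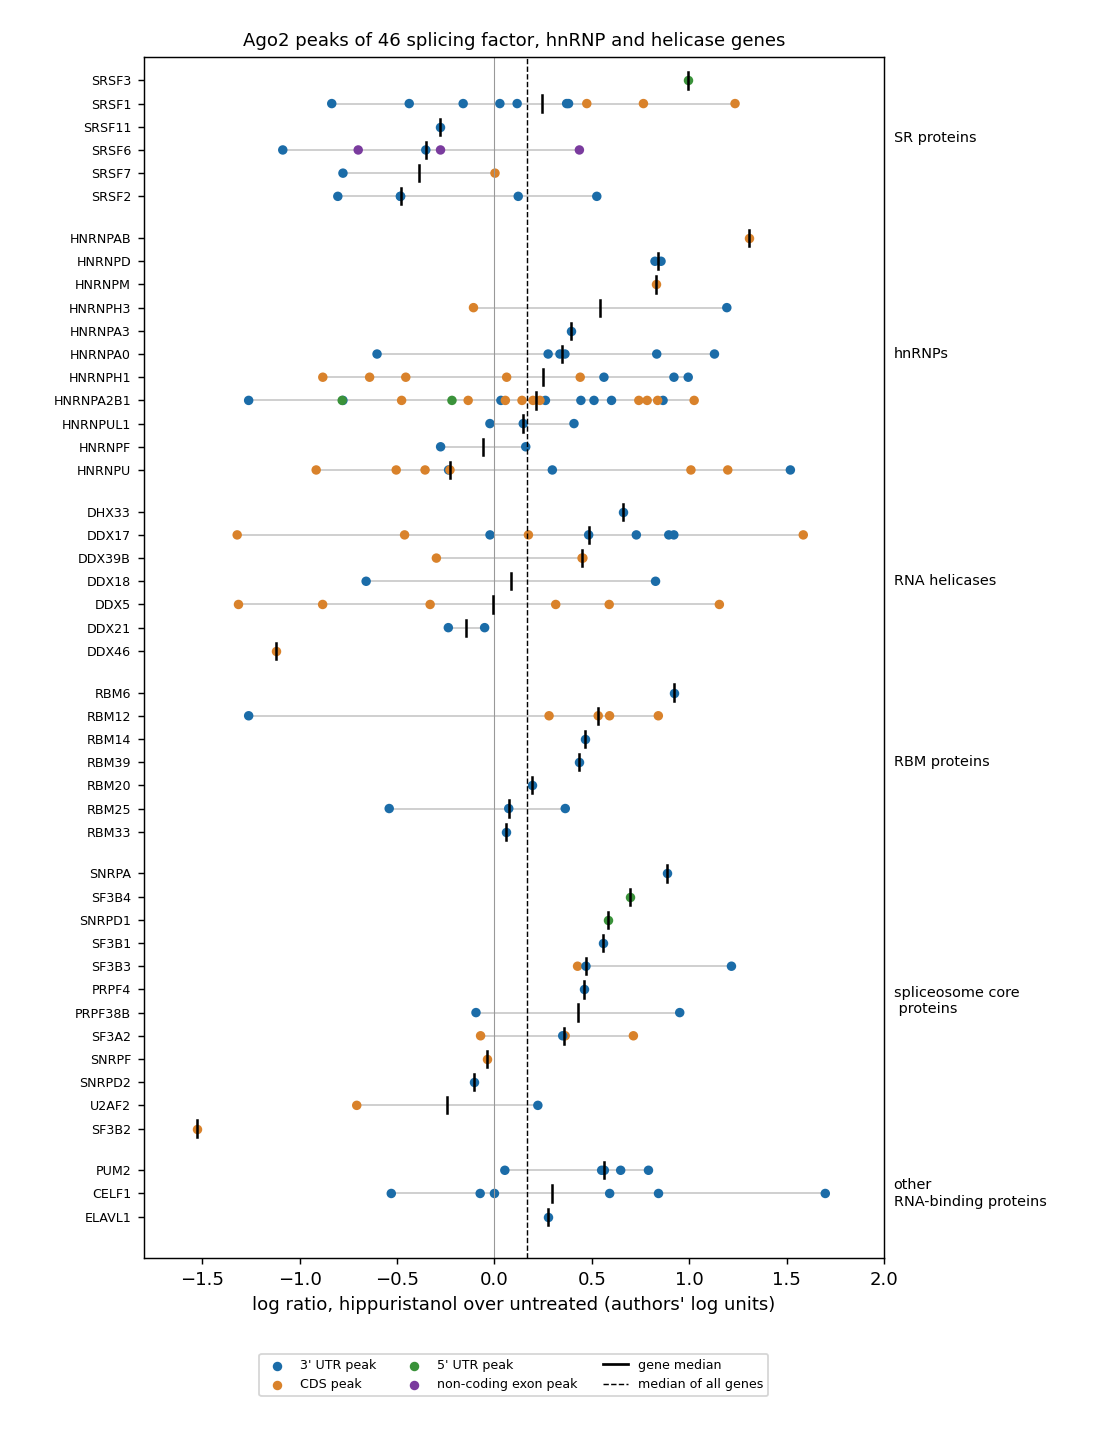
The Ago2 peaks of 46 of the 47 genes, each a point at its log ratio of hippuristanol over untreated cells, in the authors' log units, coloured by annotation class, with 1 line per gene, the gene median as a black tick and the median of all genes, 0.17, as a dashed line. Most genes with several peaks have peaks on both sides of 0; PUM2 and SF3B3 have all theirs above it.

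Peaks of the same gene often pointed in different directions. Of the 18 members with 3 or more peaks, 16 had peaks on both sides of 0, where 77.6% of all such genes did. In 2, PUM2 and SF3B3, all peaks were above 0 (17.6% of all such genes), and in none were all below 0 (4.76%). These shares were not matched for the number of peaks: 12 of the 18 members had 5 or more, against 160 of all 357 such genes. Neighbouring member peaks that overlapped differed by a median of 0.48 over 14 pairs, against 0.34 over the 474 pairs of all genes. Neighbours that did not overlap differed by 0.57 over 89 pairs, against 0.60 over 2031 pairs.

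In 12 members with peaks in CDS and in the 3′ UTR, both classes could be set against each other within the gene. The median of CDS peaks was the higher in 4 of the 12, where it was the higher in 52.6% of all 234 such genes. The median difference, CDS minus 3′ UTR, was −0.28 in the members, against 0.053 in all such genes. With the peak of highest log average taken for each class, it was −0.038 in the members, 6 of 12 with the higher value in CDS, against 0.14 in all such genes. The differences that follow use the medians. The difference was negative in all 4 hnRNPs, with −1.38 in HNRNPH1, −1.30 in HNRNPH3, −0.59 in HNRNPU and −0.14 in HNRNPA2B1. It was also negative in DDX17 (−0.87), U2AF2 (−0.93) and SF3B3 (−0.42). It was positive in both SR genes, SRSF1 (0.74) and SRSF7 (0.78), in RBM12 (1.82) and, by little, in SF3A2 (0.013). With the peak of highest log average per class, HNRNPA2B1 turned, with 0.84 in CDS and 0.26 in the 3′ UTR. HNRNPH1, HNRNPH3 and HNRNPU stayed lower in CDS. Each of these differences rests on few peaks of pooled values, and no test was made.

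A list of 82 other splicing and RNA-binding genes outside the rule was set beside the members, and 24 of them had a peak. The median of their gene medians was −0.059, with 8 of the 24 above the all-gene median. The lowest was SNRNP70, the U1 snRNP protein, at −1.18, and the highest THRAP3, a protein of nuclear speckles, at 1.01, from 1 peak each in the authors' deposited table. SFPQ, a paraspeckle protein, had the most peaks of the list, 7, and a gene median of −0.26 with peaks from −1.03 to 0.66. TARDBP, known for regulating its own messenger RNA through its 3′ UTR, had 3 peaks, all below 0, with a gene median of −0.38.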

How the data were processed

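The deposited table holds 1 row per Ago2 CLIP peak from 293S cells. Per the file header its scores are a log average and a log ratio, normalized by the authors, with libraries pooled. How they were normalized, the log base, the peak caller and the filters were not stated there or in the labels. The submitters' processing notes name TopHat, DESeq, Bowtie 0.12.8 and hg19 without saying what each did. Coordinates are printed as the table gives them; whether starts count from 0 or 1 is not given.

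Peaks of a gene with identical values were counted once, and the value of a gene was the median of its peaks (Python 3.11.15, pandas 2.3.3). The calculation of the SR, hnRNP and helicase medians was checked on simulated data with less spread than the real peaks. The SR and hnRNP genes were given set shifts and the helicases none, so recovery of a helicase shift was not checked. That check was averaged over repeated draws and does not show how closely few genes fix a group median. Sites were counted in the longest 3′ UTR of a gene's protein-coding GENCODE 29 transcripts, matched for 2082 of 2213 genes and all 47 members. The annotated 3′ UTR of SRSF1 was shorter than the span of its peaks. Protein sequences were not used here.

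Named genes are all with 3 or more peaks, the 10 highest and 10 lowest of those with 1 or 2, and those of the 5 highest and 5 lowest peaks; 1 that the rule names is counted but not reported here by itself. HNRNPH3 and the other members outside that rule, the extremes of the list of other splicing genes, and the sites printed were chosen after their values were seen. The members, lists and rules were chosen with earlier results of these data known. Medians of all genes include the members. The tests planned for values per library were not made, as the table has none.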

Additional observations from a re-analysis of the deposited data

How the results depend on the processing

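Group medians minus the median of all genes were recomputed in up to 10 other ways, some of which left a group's own values as they were: no member peak is under 20 nt, and outside SRSF6 no member has a non-coding exon peak. The range was 0.036 to 0.18 for all members (0.13 as reported), −0.65 to −0.23 for SR proteins (−0.49), 0.12 to 0.23 for hnRNPs (0.18), 0.031 to 0.27 for RBM proteins (0.27) and 0.19 to 0.40 for spliceosome core proteins (0.28). Without the lowest bin of log average, these rest on 21 members, 3 SR, 4 hnRNP, 4 RBM and 7 core genes. The helicases, at −0.084, turned to 0.092 with 1 value per peak, 0.21 with 3′ UTR peaks only (4 genes) and 0.078 with DDX3X and DDX6 added. Without the lowest bin of log average, 0.49 was left, the value of DHX33 alone and so not of the group. The other RNA-binding proteins, at 0.12, turned to −0.30 with the peak of highest log average per gene and moved to 0.40 with 1 value per peak. Member peaks above 1 and below −1 numbered 13 and 7, against 51 and 24 past 0.5 and −0.5, and 9 and 10 relative to the median of all peaks. Member genes above 0 numbered 34, and 29 were above the all-gene median. The median CDS minus 3′ UTR difference, −0.28, was −0.038 with the peak of highest log average per class. The cause was not tested. No paired analysis was possible because the table holds no values per library. For the same reason no replicate could be left out, and no count model or library scaling was run. The depth of the libraries, and so the counting error of each peak, is unknown.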
